A study of Homo sapiens with 10 samples.

Results

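MicroRNAs recovered from HepG2 cells, a human liver tumour line, with a probe against the p21 mRNA were set against those recovered from the same line with a probe against the STAT3 mRNA. The 4 samples are the p21 purification on panel 1 and panel 2 and the STAT3 purification on panel 1 and panel 2, of 10 samples in the series. All 745 miRNA assays of the panels were taken, 375 on panel 1 and 370 on panel 2, for 742 miRNA names. The other 6 samples are the HepG2 control-probe purification and the p21-probe and control-probe purifications of PC-3, a human prostate cancer line, each on both panels. Per the labels, every probe was transfected into living cells and left for 24 hours, the RNA held by it was caught on streptavidin-coated magnetic beads, and the miRNAs in it were read by SYBR Green RT-PCR. Each probe was used in 1 purification, and the panels hold different assays, so they are not replicates of each other. Cells of both purifications thus carried a transfected probe, and probe sequences were not used here.

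MicroRNAs are short RNAs that, loaded into an Argonaute protein, pair with messenger RNAs and lower their translation or stability. Pairing rests mainly on the seed near the 5′ end, so miRNAs with the same seed are grouped as a family, while miRNAs cut from the same primary transcript form a cluster and may have unrelated seeds. Each hairpin precursor can give a miRNA from either arm, and the less abundant arm carries a star in the older names used by the panels. The p21 protein, encoded by CDKN1A, inhibits cyclin-dependent kinases and slows the cell cycle. STAT3 is a transcription factor activated by cytokines such as interleukin-6, which in liver drives the acute-phase response.

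The families on which the comparison turns are shown first, as mature sequences from RefSeq (GRCh38.p14), 5′ to 3′, with the seed, bases 2 to 8, in capitals. The let-7 family shares 1 seed, and its members differ by single bases in the rest of the molecule.
let-7a: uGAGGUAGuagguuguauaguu
let-7b: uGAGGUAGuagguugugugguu
let-7c: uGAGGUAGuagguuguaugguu
let-7d: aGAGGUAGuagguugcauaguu
let-7e: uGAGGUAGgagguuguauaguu
let-7f: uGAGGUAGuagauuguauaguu
let-7g: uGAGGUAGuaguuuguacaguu
let-7i: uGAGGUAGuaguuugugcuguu
The miR-25 and miR-92 family is shown because its members lay on opposite sides of the comparison.
miR-92a: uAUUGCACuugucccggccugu
miR-92b: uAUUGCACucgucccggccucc
miR-25: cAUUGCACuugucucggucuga
The pair of miR-103 and miR-107 and miR-320b, with other seeds, were on the p21 side.
miR-103: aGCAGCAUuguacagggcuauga
miR-107: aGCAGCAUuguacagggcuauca
miR-320b: aAAAGCUGgguugagagggcaa
Both arms of the miR-296 hairpin were also on the p21 side, with unrelated seeds.
miR-296-5p: aGGGCCCCcccucaauccugu
miR-296-3p: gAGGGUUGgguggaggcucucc
The miR-125 and miR-30 families are shown for the STAT3 side.
miR-125a-5p: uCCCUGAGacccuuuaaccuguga
miR-125b: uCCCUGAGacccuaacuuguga
miR-30a: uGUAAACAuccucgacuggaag
miR-30c: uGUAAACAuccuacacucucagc
The family of miR-99 and miR-100 was split between the probes.
miR-99a: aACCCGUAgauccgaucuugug
miR-99b: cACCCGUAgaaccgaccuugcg
miR-100: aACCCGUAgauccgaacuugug
The pair of miR-192 and miR-215 was detected with the STAT3 probe and not with the p21 probe.
miR-192: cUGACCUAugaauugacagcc
miR-215: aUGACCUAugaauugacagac

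The measurement is the quantification cycle (Cq), the PCR cycle at which the product of a well passes a threshold: the earlier it does so, the more template was there, and each cycle counts as 1 log2 unit. An assay was counted as detected at a Cq of at most 35. For an assay detected with both probes the difference was its Cq with STAT3 minus its Cq with p21, so that a positive value means more miRNA with the p21 probe. The median of these differences, 0.64 cycles on panel 1 and 0.08 on panel 2, was subtracted within each panel, and the result is called the centred value (log2). A centred value of at least 1 in size, which is 2-fold, was counted as higher with one probe. With 1 purification per probe there is no replicate check and no test, and no p-value is given. For 7 assays with wells on both panels, the SD of a centred difference was 0.35 log2 units (7 pairs). The largest disagreement was 0.98 log2 units, for miR-191, at 1.22 on panel 1 and 0.24 on panel 2. This error covers PCR wells and not transfection or bead capture.

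With the p21 probe 211 assays were detected and with the STAT3 probe 256, while 433 were detected with neither. The p21 purification held fewer detected assays but more abundant ones: 31 assays had a Cq of at most 30 with p21, against 18 with STAT3. Wells with no Cq at all numbered 329 with p21 and 184 with STAT3, and wells with a Cq above 35 numbered 205 with p21 and 305 with STAT3. Among the 155 assays detected with both probes the median Cq was 32.46 with p21 and 33.31 with STAT3. Of these 155, 45 were higher with p21 (29.0%), 31 were higher with STAT3 (20.0%) and 79 lay within 2-fold, so 49.0% passed 2-fold in either direction. The centred values had an SD of 1.52 log2 units across assays. The split of these calls depends on the centre: without centring 58 were higher with p21 and 17 with STAT3, and with the panels' reference assays as the centre 26 were higher with p21 and 76 with STAT3. With UniSp3, a synthetic calibrator in 3 wells of each plate, as the centre, 85 were higher with p21 and 14 with STAT3. The panel medians of 0.64 and 0.08 compare with 1.66 and 0.86 cycles for the reference assays and with -0.98 and 0.26 for UniSp3. Statements on direction below are therefore relative to the middle of the detected miRNAs, while differences between assays of the same panel do not depend on the centre. An assay detected with both probes can be higher with p21 by no more than the distance of its p21 Cq from the limit, so the larger values belong to miRNAs that were abundant with one probe.

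**Figure D1:**
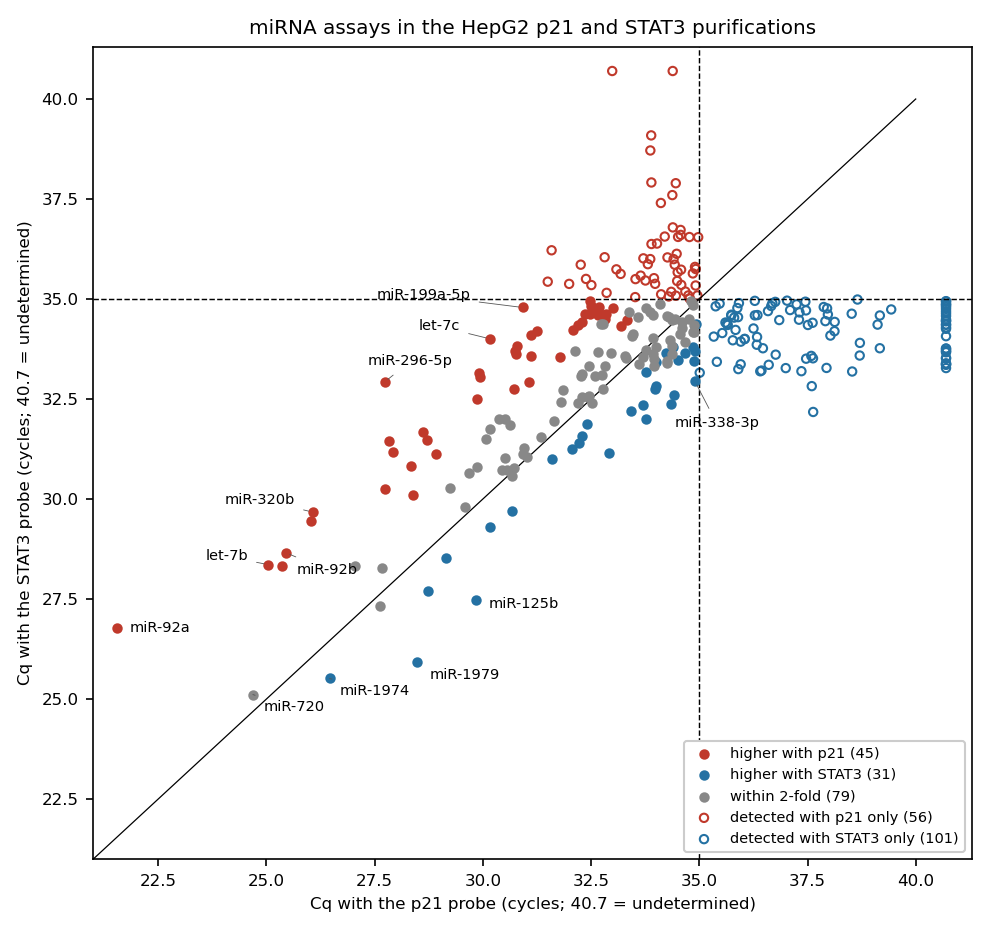
Cq of each miRNA assay detected in HepG2 with 1 or both of the p21 and STAT3 probes, with the p21 purification on the x axis and the STAT3 purification on the y axis (cycles; wells with no Cq are drawn at the far end of each axis). Red filled points are the 45 assays at least 2-fold higher with p21 after centring, blue filled points the 31 higher with STAT3, grey points the 79 within 2-fold, and open points the 56 assays detected with p21 only (red) and the 101 detected with STAT3 only (blue); dashed lines mark a Cq of 35. miR-92a lies alone at the lowest p21 Cq, 21.54, far above the line of equal Cq.

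The let-7 family, which represses RAS genes and HMGA2 and rises as cells differentiate, went with the p21 probe. Of its 9 assays, 6 were detected with both probes, 5 of them higher with p21 and 0 higher with STAT3, against 29.0% and 20.0% of all assays detected with both. The median centred value of the 6 was 2.55, where the median of all 155 is 0 after centring, and their median difference before centring was 3.18 cycles. let-7b had a Cq of 25.04 with p21 and 28.36 with STAT3, a centred value of 2.68. let-7c had a Cq of 30.16 with p21 and 34.01 with STAT3, a centred value of 3.20, the highest of the family. let-7g, at a Cq of 27.83 with p21 and 31.44 with STAT3, had a centred value of 2.97. These 3 had the highest centred values of the family. let-7e, at 28.62 with p21 and 31.67 with STAT3, had a centred value of 2.41, and let-7d, at 29.86 with p21 and 32.51 with STAT3, had 2.01. let-7i was the exception among those measured, with a Cq of 32.30 with p21 and 32.56 with STAT3 and a centred value of -0.38. Counting positions from the 5′ end, let-7i differs from let-7g at A17G and A19U (the base of let-7g first), and let-7b differs from let-7c at A17G alone. let-7a was detected with p21 only (33.18, against 35.63 with STAT3) and let-7f with STAT3 only (34.26, against 36.25 with p21). miR-98 was detected with neither. How far the assays tell such close sequences apart was not tested.

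The miR-25 and miR-92 family was divided. miR-92a, the last miRNA of the growth-promoting transcript that begins with miR-17, had the highest centred value of all, 4.61 or 24.4-fold, with a Cq of 21.54 with p21, 26.79 with STAT3 and 30.58 with the control probe. miR-92b, made from a separate gene on chromosome 1, had a Cq of 25.45 with p21, 28.66 with STAT3 and 33.16 with the control probe, a centred value of 2.57. Both were more abundant with either target probe than with the control probe, and most abundant with p21. miR-25 went the other way, at 32.23 with p21 and 31.39 with STAT3, a centred value of -1.47, or 0.15 with UniSp3 as the centre. All 3 carry the seed AUUGCAC: miR-92b differs from miR-92a at U10C, G21C and U22C, and miR-25 differs from it at U1C, C14U, C18U and U22A (the base of miR-92a first). The other 3 members on the panels, miR-32, miR-363 and miR-367, were detected with neither.

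Several other miRNAs were abundant with p21 and several-fold lower with STAT3. miR-320b, of a family whose founding hairpin is made without Drosha, had a Cq of 26.07 with p21 and 29.67 with STAT3, a centred value of 3.52, and miR-320a had 26.04 with p21 and 29.44 with STAT3, a centred value of 2.76. miR-103, which acts with miR-107 in insulin signalling, is on both panels and gave centred values of 2.63 on panel 1 and 2.44 on panel 2. miR-107, which differs from miR-103 at G22C (the base of miR-103 first), had a Cq of 29.93 with p21 and 33.05 with STAT3, a centred value of 2.48. All 3 assays of that seed, GCAGCAU, were thus higher with p21, and within 0.18 log2 units of each other. miR-103 is sold as a reference assay, as are miR-191 and miR-423-5p, and all 3 had positive centred values on both panels. The small nuclear and nucleolar RNAs U6, SNORD38B and SNORD49A differed by 0.44 ± 0.41 cycles before centring (SD, 6 wells), close to the panel medians.

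The remaining assays among the 10 highest came from unrelated seeds. miR-296-5p, reported to act in endothelial cells during vessel growth, had a Cq of 27.73 with p21, 32.93 with STAT3 and 36.55 with the control probe, a centred value of 4.56 or 23.5-fold. miR-296-3p, from the other arm of that hairpin, had 30.75 with p21 and 33.70 with STAT3, a centred value of 2.87. The hairpin therefore gave both arms on the same side. miR-199a-5p, made with miR-214 from a transcript antisense to a dynamin gene, had 30.92 with p21 and 34.79 with STAT3, a centred value of 3.23. miR-1247 had a Cq of 29.91 with p21, 33.14 with STAT3 and 39.03 with the control probe, a centred value of 3.14. miR-1913 had 31.24 with p21 and 34.20 with STAT3, a centred value of 2.88. The STAT3 Cq was more than 2 cycles past the p21 Cq in all of these, which follows from their choice as the highest values.

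After centring on the panel medians, the miRNAs higher with STAT3 were fewer than those higher with p21, and their values were smaller. miR-1979, a name since withdrawn from the miRNA registry because the sequence is a piece of a Y RNA, had a Cq of 28.48 with p21 and 25.92 with STAT3, a centred value of -3.19 or 9.15-fold. miR-125b, the vertebrate relative of the worm timing gene lin-4, had 29.83 with p21 and 27.48 with STAT3, a centred value of -2.997 or 7.99-fold. With the control probe miR-125b was also at 29.83, equal to its Cq with p21, while its Cq with STAT3 was lower. miR-125a-5p, with the same seed CCCUGAG, showed no such difference: 27.66 with p21 and 28.29 with STAT3, a centred value of -0.02. The next values belonged to miR-338-3p (34.90 with p21, 32.94 with STAT3, centred -2.60) and miR-9 (33.77 with p21, 31.997 with STAT3, centred -2.41), both known from neural tissue. miR-197 had a Cq of 32.91 with p21, 31.16 with STAT3 and 37.95 with the control probe, a centred value of -2.39. The others of the 10 lowest were miR-18b at -2.06, miR-1266 at -2.05, miRPlus-D1033 at -1.88, miR-30a at -1.85 and miR-502-5p at -1.82. Of these 10, miR-1979 and miR-125b were the only ones with a Cq of at most 30 with the STAT3 probe.

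**Figure D2:**
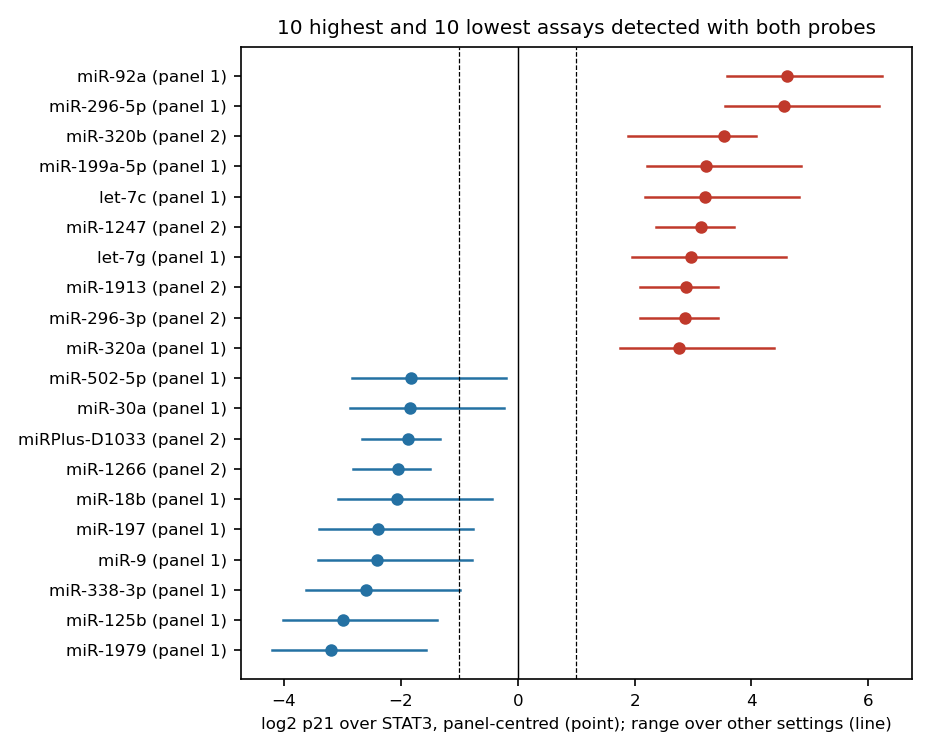
Centred log2 value, p21 over STAT3, of the 10 highest and the 10 lowest of the 155 miRNA assays detected with both probes in HepG2 (points), with the range over the other processing settings as a line, not an error bar; dashed lines mark 2-fold in each direction. The red points run from 4.61 for miR-92a to 2.76 for miR-320a and the blue points from -1.82 for miR-502-5p to -3.19 for miR-1979, and no line crosses 0.

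Values near 2-fold shade into each other. Just inside the limit on the p21 side were miR-378 at 1.05 and miR-1201 at 1.05, and just outside it were miR-29c at 0.998 and miR-31 at 0.98. On the STAT3 side miR-1974 at -1.03 and miR-1914 at -1.11 were inside, and let-7f-2* and miR-23a, both at -0.94, were outside. These gaps are smaller than the SD of 0.35 from repeated wells, so membership near the limit is not firm.

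The miR-30 family, expressed widely in epithelia, lay on the STAT3 side of the panel median. miR-30c, the more abundant, had a Cq of 28.74 with p21, 27.69 with STAT3 and 31.14 with the control probe, a centred value of -1.68. miR-30a had 33.97 with p21 and 32.76 with STAT3, a centred value of -1.85. These were the 2 of 3 measured members that passed 2-fold, and miR-30b, at 30.92 with p21 and 31.12 with STAT3, did not, with -0.44. With UniSp3 as the centre the median of the 3 was -0.064, that of miR-30c, with miR-30a at -0.23 and miR-30b at 1.18, past 2-fold on the p21 side. The direction of the family therefore rests on the centre. The other 2 members on the panels were detected with neither probe.

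Other families split or stayed near the middle. In the family of miR-99 and miR-100, miR-100 was higher with p21 (32.08 with p21, 34.24 with STAT3, centred 1.52). miR-99b was higher with STAT3 (31.60 with p21, 31.002 with STAT3, centred -1.24, or 0.38 with UniSp3 as the centre), and miR-99a, at -0.42, was between them. In the miR-29 family, which represses collagen genes, miR-29b had a centred value of -1.25 (0.37 with UniSp3 as the centre), while miR-29a had 0.93 and miR-29c 0.998. The family of miR-15 and miR-16, which represses BCL2 and cyclins, had miR-15a at 1.39, miR-16 at -0.29 and miR-15b at -0.62, with miR-424 detected with p21 only. In the miR-17 family, repeatedly reported to repress p21, miR-106a was higher with p21 (28.35 with p21, 30.82 with STAT3, centred 1.82). Its relatives miR-20a, at 0.79, and miR-93, at 0.30, lay within 2-fold, and miR-17 was detected with p21 only (33.53, against 35.50 with STAT3). The miR-23, miR-26, miR-27 and miR-221 families lay within 2-fold in all 8 assays, from -0.94 for miR-23a to 0.40 for miR-27a. High abundance did not always go with p21: miR-23a, at 27.62 with p21 and 27.32 with STAT3, was among the more abundant assays of both purifications.

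**Figure D3:**
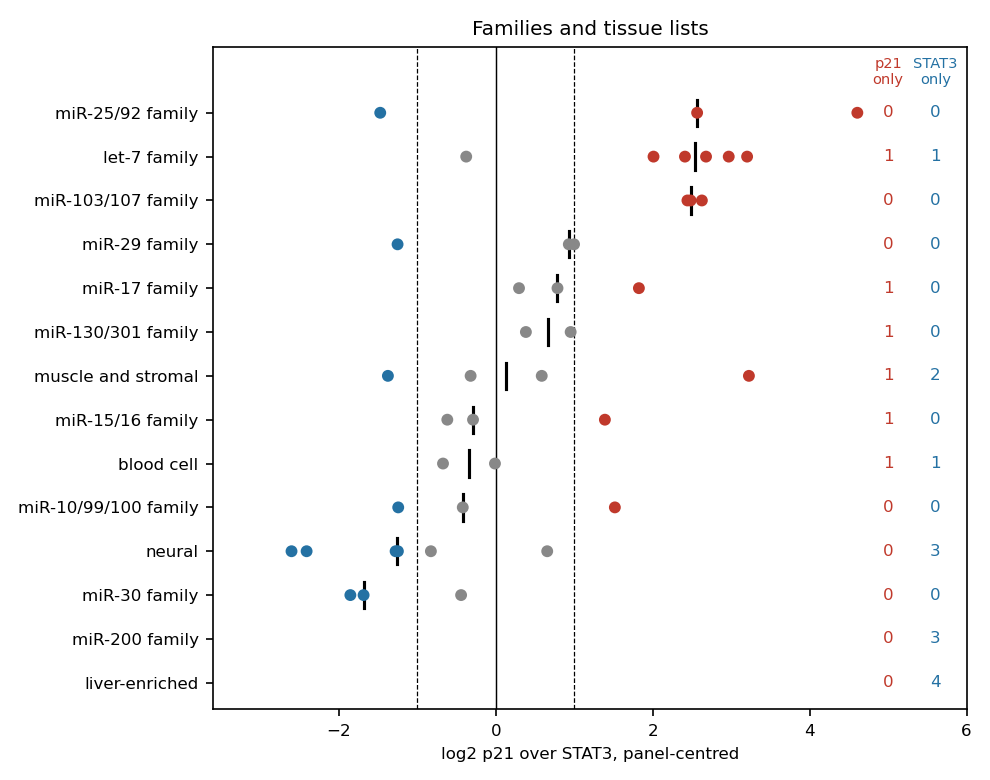
Centred log2 values, p21 over STAT3, of the members of miRNA families and tissue lists detected with both probes in HepG2; each point is 1 assay, red where at least 2-fold higher with p21, blue where at least 2-fold higher with STAT3 and grey otherwise, black bars are medians, dashed lines mark 2-fold, and the columns at the right count members detected with p21 only and those seen with STAT3 only. The let-7 points lie to the p21 side apart from let-7i at -0.38, the points of miR-25 and miR-92 run from 4.61 to -1.47, the miR-30 points lie to the STAT3 side with this centre, and the liver-enriched list has 4 members with STAT3 alone.

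Seeds were compared over all detected assays with a RefSeq match (263 of 312), and 27 seeds were shared by at least 2 miRNA names. For 15 of these, at least 2 assays were measured with both probes. All measured members were higher with p21 for 2 seeds, GCAGCAU of miR-103 and miR-107 and CUCUGGG. The CUCUGGG seed belongs to miR-326, at 1.51, and miR-330-5p, at 1.89. The matched members of GUAAACA, miR-30a and miR-30c, were both higher with STAT3, but miR-30b of the same family, not matched here, lay within 2-fold. The counts of uniform seeds thus cover matched names only. Members passed 2-fold in both directions for 2 seeds, AUUGCAC of miR-25 and miR-92a and ACCCGUA of miR-99b and miR-100. Some seed groups thus shared a direction and others did not. Beside these counts, 29.0% of all 155 assays were higher with p21 and 20.0% with STAT3. Seed groups were not set against groups of unrelated assays. Whether members of a seed share a direction more often than other assays was therefore not tested.

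Values differed widely within several clusters. The cluster of miR-17 to miR-92a spans 787 bases of chromosome 13 (GRCh38.p14, 91350605 to 91351391, plus strand). Of its members miR-92a had 4.61, while miR-19b had 0.95, miR-20a 0.79 and miR-17* -0.88. miR-92a has a further gene on chromosome X with the same mature sequence, and the assay cannot tell these sources apart. The value of 4.61 therefore cannot be assigned to the chromosome 13 cluster alone. miR-17 and miR-18a of this cluster were detected with p21 only and miR-18a* with STAT3 only. The cluster of miR-106b, miR-93 and miR-25 on chromosome 7 gave miR-93* at 2.07, miR-93 at 0.30, miR-106b* at -0.38 and miR-25 at -1.47. The values of the miR-17 to miR-92a cluster spanned 5.49 log2 units, and 4.85 to 7.29 under the other centres. Those of the miR-106b cluster spanned 3.54, and 2.48 to 4.17 under the other centres. These centres were set beside the spans after seeing the data. Members of this cluster are on both panels, miR-93* and miR-106b* on panel 2 and miR-93 and miR-25 on panel 1.

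Clusters that join a let-7, a miR-99 and a miR-125 gene also held widely differing values. In 728 bases of chromosome 19 (51692612 to 51693339, plus strand), let-7e had 2.41, miR-125a-3p 2.39, miR-125a-5p -0.02 and miR-99b -1.24. In the related cluster on chromosome 21, let-7c had 3.20, miR-99a -0.42 and miR-125b -2.997. miR-125b has a further gene on chromosome 11, and the assay cannot tell its sources apart. After centring on the panel medians, the let-7 member of each of these clusters lay on the p21 side and the miR-99 member did not. With UniSp3 as the centre both miR-99 members were also on the p21 side, miR-99a past 2-fold and miR-99b at 0.38. Without centring miR-99a was positive as well. The let-7 and miR-99 members are all on panel 1, so the higher value of let-7 in each cluster does not depend on the centre. The cluster of miR-193b and miR-365, 5405 bases of chromosome 16 (14303967 to 14309371, plus strand), gave miR-193b at 2.34, with a Cq of 25.35 with p21 and 28.33 with STAT3. Its other arm miR-193b* had 2.05, whereas miR-365, at 32.06 with p21 and 31.25 with STAT3, had -1.45, or 0.17 with UniSp3 as the centre. By contrast the cluster of miR-23a, miR-27a and miR-24, 373 bases of chromosome 19, kept its 3 main miRNAs within 2-fold, at -0.94, 0.40 and 0.62 in that order.

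**Figure D4:**
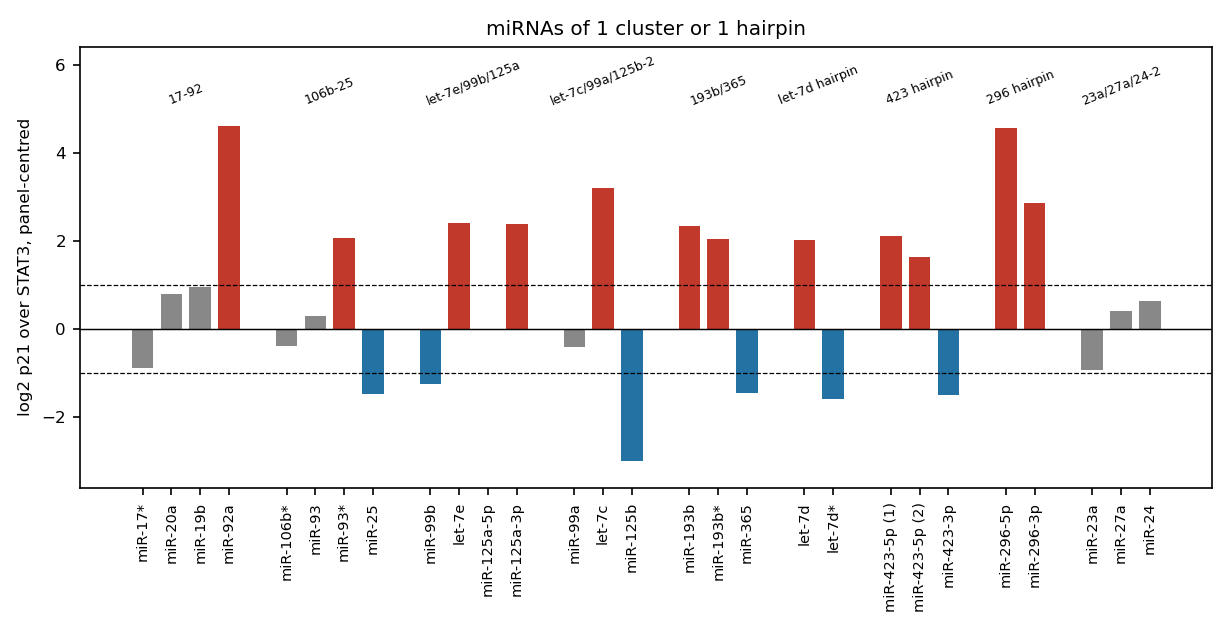
Centred log2 value, p21 over STAT3, of miRNAs that share a cluster or a hairpin, measured with both probes in HepG2; each bar is 1 assay, coloured red where at least 2-fold higher with p21, blue where at least 2-fold higher with STAT3 and grey otherwise, with dashed lines at 2-fold. Bars of opposite colour stand side by side in the cluster of let-7c, miR-99a and miR-125b (3.20 and -2.997) and in the let-7d (2.01 and -1.60) and miR-423 hairpins.

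The arms of a hairpin are cut from 1 precursor, and their values were set side by side. Both arms were measured with both probes for 14 hairpins. In 8 of the 14 the arms were at least 1 log2 unit apart, and in 2 they passed 2-fold in opposite directions. For 5 of the 14 both arms were on 1 panel, and 2 of these 5, let-7d and miR-31, were that far apart whatever the centre. The gaps of the other 9 depend on the centres of both panels: with UniSp3 as the centre the miR-93 gap was 0.029 in place of 1.77 and the miR-125a gap 0.605 in place of 2.40. Over the 7 other centres tried, chosen for this count after seeing the data, 7 or 8 hairpins had arms that far apart and 0 to 3 had arms past 2-fold in opposite directions. For scale, the centred values of all 155 assays had an SD of 1.52 log2 units. Of these 155, 29.0% were higher with p21 and 20.0% higher with STAT3. The arms were not set against pairs of unrelated assays, so these counts do not show a trait of hairpins. let-7d had 2.01 and let-7d* -1.60, let-7d* with a Cq of 30.67 with p21 and 29.71 with STAT3. miR-423-5p had 2.12 on panel 1 and 1.64 on panel 2, and miR-423-3p, at 30.17 with p21 and 29.30 with STAT3, had -1.50. With UniSp3 as the centre the values of let-7d* and miR-423-3p were 0.024 and 0.12, so that neither hairpin had arms on opposite sides. The let-7d arms, on 1 panel, stayed 3.61 log2 units apart, and the miR-423 gap was 2.48 in place of 3.38. In 3 hairpins both arms were higher with p21: miR-296, miR-193b and miR-886. The miR-886 arms had 2.35 and 2.23, and that name has since been withdrawn because the sequence is part of a vault RNA.

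Of all 745 assays, 56 (7.52%) passed the limit with p21 only and 101 (13.6%) with STAT3 only. Most of these lay close to the limit. The assays detected with p21 only had Cq values between 31.50 and 34.97, with a median of 34.23, and those detected with STAT3 only between 32.18 and 34.99, with a median of 34.36. The well of the undetecting probe still gave a late Cq in 54 of the 56 p21-only assays and in 71 of the 101 STAT3-only assays. The wells differed by less than 1 cycle in 14 p21-only assays and in 2 STAT3-only assays. A gap of at least 2 cycles, or no Cq with the other probe, was seen for 28 p21-only and 76 STAT3-only assays. At a limit of 35 the STAT3-only group was therefore the larger and the better separated, in a comparison in which p21 wells without any Cq were also the more numerous. With a limit of Cq 34 the counts were equal, 54 with p21 only and 54 with STAT3 only, and with a limit of 32 they were 21 with p21 only and 6 with STAT3 only.

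For an assay detected with 1 probe, a bound on the difference was computed with the other probe at Cq 35 and the same panel centring. The bounds move with the centre and the limit. With a limit of Cq 34 the 16 assays described next, 8 for each probe, had bounds of 1.58-fold to 4.92-fold, and with a limit of 32 those of the first 3 turned negative on the log2 scale (-1.22, -1.31 and -1.71), which bounds nothing. The bound was 2-fold or more for 17 of the p21-only and 51 of the STAT3-only assays. The 8 p21-only assays with the lowest Cq were led by miR-612, at 31.50 with p21 and 35.43 with STAT3, which is at least 10.7-fold higher with p21 (6.23-fold to 15.7-fold over the other centres). miR-26b*, at 31.59 with p21 and 36.22 with STAT3, was at least 10.0-fold higher. miR-1224-3p followed at 31.99 with p21 and 35.38 with STAT3, at least 7.59-fold higher. The next were miR-378* (at least 6.30-fold), miR-636 (at least 5.79-fold) and miR-769-5p (at least 5.31-fold), all on panel 2. miR-196a, encoded in the HOX clusters, had a Cq of 32.81 with p21 and 36.04 with STAT3, at least 2.92-fold higher. Its seed relative miR-196b, detected with both probes at 30.78 with p21 and 33.83 with STAT3, had a centred value of 2.41, so this pair lay on the same side. miR-18a, at 32.86 with p21 and 35.15 with STAT3, was at least 2.83-fold higher, whereas miR-18b, of the same seed, had -2.06 in the other direction.

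The STAT3-only assays were led by miR-622, at 37.63 with p21 and 32.18 with STAT3, at least 11.0-fold higher with STAT3 (3.59-fold to 22.3-fold over the other centres). miR-142-3p, a miRNA of blood-forming cells, had a Cq of 37.60 with p21, 32.82 with STAT3 and 33.13 with the control probe, at least 7.05-fold higher with STAT3. miR-330-3p, at 35.01 with p21 and 33.16 with STAT3, lay just past the limit with p21, and its bound, 5.58-fold, fell to 1.82-fold with UniSp3 as the centre. miR-1, a muscle miRNA, had 36.41 with p21, 33.19 with STAT3 and 31.52 with the control probe. For miR-142-3p the control Cq was close to the STAT3 Cq, for miR-1 it was lower, and for both the p21 Cq was the highest. The other 4 of the lowest 8 were miR-502-3p (38.53 with p21, 33.19 with STAT3), miR-103-2* (37.36 with p21, 33.20 with STAT3), miR-1254 (36.44 with p21, 33.21 with STAT3) and miR-34a* (35.90 with p21, 33.25 with STAT3). Star names made up 28.6% of the p21-only assays and 24.8% of the STAT3-only assays, against 9.68% of those detected with both and 20.8% of all 745.

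**Figure D5:**
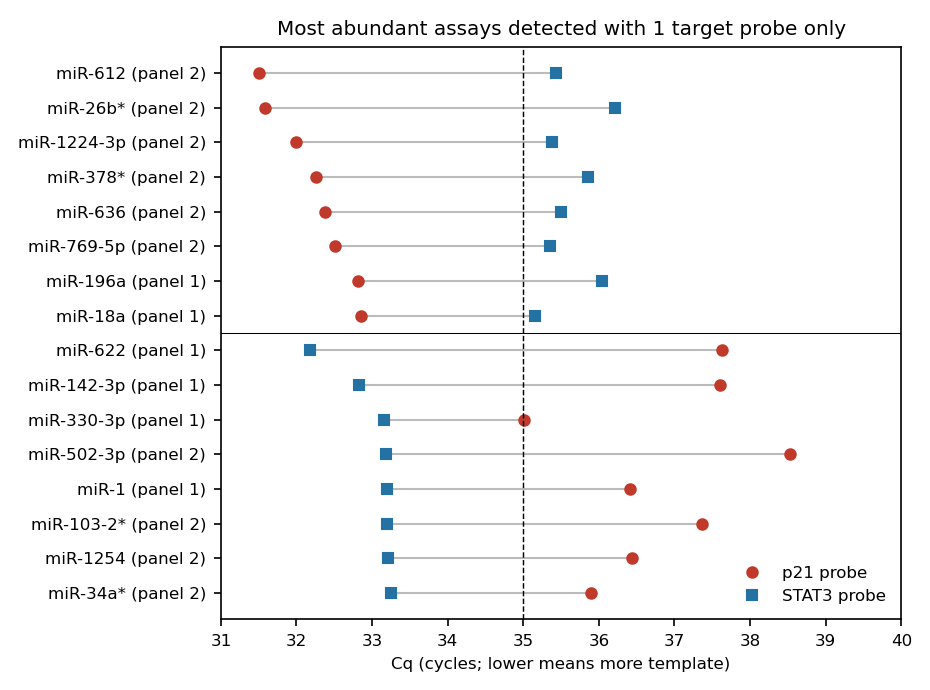
Cq in HepG2 of the assays with the lowest Cq among those detected with 1 target probe only, 8 for p21 (upper block) and 8 for STAT3 (lower block), with the limit of 35 as a dashed line; red circles are the p21 purification and blue squares the STAT3 purification. The detecting probe gave 31.50 to 32.86 for the p21-only assays and 32.18 to 33.25 for the STAT3-only assays, and the other probe gave a Cq past 35 throughout.

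Some families and clusters appeared with the STAT3 probe alone. miR-192, miR-194 and miR-215, abundant in liver and gut and induced by p53, come from a pair of clusters on chromosomes 11 and 1, and 5 of their 5 assays were detected with STAT3 only, against 13.6% of all assays. With STAT3, miR-215 had a Cq of 33.67, miR-192 of 33.76, miR-194* of 34.23, miR-194 of 34.43 and miR-192* of 34.58. With p21, miR-215, miR-192 and miR-192* gave no Cq, miR-194 gave 38.13 and miR-194* 35.84, and none of the 5 had a Cq with the control probe. The bounds ran from at least 1.42-fold for miR-192* to at least 3.92-fold for miR-215. Every member thus lay on the same side, and all were close to the detection limit.

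The miR-200 family, which keeps epithelial cells epithelial by repressing ZEB1 and ZEB2, had 3 of 5 main arms detected with STAT3 only. Of all 745 assays 13.6% were detected with STAT3 only. miR-200c had no Cq with p21 and 33.36 with STAT3, at least 4.86-fold higher with STAT3. miR-200a had no Cq with p21 and 34.88 with STAT3, and miR-141 had 36.75 with p21 and 34.93 with STAT3. The other 2 members, miR-200b and miR-429, were past 35 with STAT3 as well, and later or without a Cq with p21. None of the 5 gave a Cq with the control probe. Its star arms did not follow: miR-141* (33.89 with p21, 37.91 with STAT3) and miR-200b* (34.29 with p21, 35.06 with STAT3) were detected with p21 only, and miR-200a* and miR-200c* with neither. In the cluster of miR-188 and miR-532 on the short arm of chromosome X, 5 of 11 listed assays were detected with STAT3 only. The share over all 745 assays is again 13.6%. The 5 were miR-502-3p, miR-188-3p, miR-501-3p, miR-532-5p and miR-660, at 33.19 to 34.74 with STAT3. A further member, miR-502-5p, was higher with STAT3 at -1.82, while miR-532-3p, at 0.04, was equal. No listed member of this cluster was at least 2-fold higher with p21 or detected with p21 only. The list leaves out miR-500a of this cluster, which was detected with neither probe (36.81 with p21, 36.24 with STAT3). Of the lists with at least 3 detected members, none was seen with p21 alone. Among hairpins with at least 2 arms detected and at least 1 of them with a single probe (39), all arms were p21 only for 3 (miR-182, miR-744 and miR-769) and STAT3 only for 5 (miR-192, miR-194, miR-214, miR-34a and miR-767). These 3 and 5 stand beside 56 assays with p21 only and 101 with STAT3 only over all 745. In 7 hairpins 1 arm was detected with p21 only and the other with STAT3 only, among them let-7a, miR-18a, miR-141, miR-193a and miR-424.

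Large clusters were mostly silent. In the imprinted 14q32 cluster 11 of 46 listed assays were detected, 5 with both probes, 2 with p21 only and 4 with STAT3 only, none of which is above the share over all assays (155, 56 and 101 of 745). miR-485-3p was higher with p21 (32.30 with p21, 34.43 with STAT3, centred 2.05) and miR-758 higher with STAT3 at -1.12. The list leaves out miR-300 of this cluster, which was also higher with p21 (33.01 with p21, 34.76 with STAT3, centred 1.67). In the primate cluster of 19q13, active in placenta and stem cells, 1 of 47 assays was detected. In the related miR-302 family, which includes miR-372 and is reported to repress p21, 0 of 11 listed assays were detected. That list leaves out miR-302e, which was detected with p21 only (33.90 with p21, 36.375 with STAT3, at least 2.03-fold higher with p21). Of the 50 lists of families, clusters and tissue markers, 32 had at least 3 detected members and 18 had fewer.

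Markers of cell types were checked because HepG2 is a liver line. Of 6 liver-enriched assays, 4 were detected with STAT3 only (miR-192, miR-194, miR-215 and miR-148a) and 0 with p21, against 13.6% of all 745 assays with STAT3 only and 7.52% with p21 only. All 4 but miR-148a are also among the assays described above. miR-122, the dominant miRNA of hepatocytes, gave no Cq with either probe or with the control probe, and miR-885-5p gave 39.76 with p21 and none with STAT3. The liver-defining miRNA was thus not detected in any HepG2 purification. Of 10 neural miRNAs, 6 were detected with both probes, 4 of these 6 were higher with STAT3 (against 20.0% of all 155) and 0 with p21. A further 3 of the 10 were detected with STAT3 only (against 13.6% of all 745), and the median centred value was -1.26, or 0.36 with UniSp3 as the centre. The most abundant of them, miR-124, had a Cq of 29.16 with p21, 28.52 with STAT3 and 28.97 with the control probe, a centred value of -1.28 (0.34 with UniSp3). miR-9 and miR-338-3p had lower Cq values with the control probe, 30.81 and 31.79, than with either target probe. Of 11 muscle and stromal miRNAs, 4 were detected with both probes. Of these 4, 1 was higher with p21 (miR-199a-5p) and 1 higher with STAT3 (miR-133b, at -1.37, or 0.25 with UniSp3), against 29.0% and 20.0% of all 155. miR-143 was detected with p21 only, and miR-1 and miR-214 with STAT3 only, against 7.52% and 13.6% of all 745. Of the 7 blood-cell miRNAs, miR-223 at -0.67 and miR-451 at -0.01 lay within 2-fold, miR-150 was detected with p21 only and miR-142-3p with STAT3 only. The part of other cell types in these values was not tested.

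The control and PC-3 purifications give an outside view of the same assays. Of the 45 assays higher with p21, 23 (51.1%) were detected with the HepG2 control probe, of the 31 higher with STAT3, 21 (67.7%), and of the 79 within 2-fold, 45 (57.0%). Among one-probe assays this fell to 14 of 56 for p21 only (25%) and 11 of 101 for STAT3 only (10.9%). In PC-3 cells purified with the p21 probe, 18 of the 45 assays higher with p21 in HepG2 were detected (40%), against 10 of the 31 higher with STAT3 (32.3%) and 13 of the 79 within 2-fold (16.5%). The median of the mean HepG2 Cq of these classes was 32.23, 33.02 and 33.30 cycles in the same order, so the class seen most often in PC-3 was also the most abundant in HepG2. Of the p21-only assays 4 of 56 were seen with p21 in PC-3 (7.14%) and of the STAT3-only assays 1 of 101 (0.990%). The PC-3 control probe detected 2 of the 45, 5 of the 31 and 7 of the 79.

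Of the 10 assays with the lowest Cq in the PC-3 p21 purification, 6 were higher with p21 in HepG2: miR-92a, let-7b, miR-320a, miR-940, miR-92b and let-7e. miR-92a had a Cq of 27.81 and let-7b of 28.99 with p21 in PC-3, and neither gave a Cq with the PC-3 control probe. Another 3, miR-1979, miR-1974 and let-7d*, were higher with STAT3 in HepG2, and all 3 were also detected with the PC-3 control probe. miR-720, a transfer RNA fragment by present naming, lay within 2-fold in HepG2 at -0.21. Of all 53 assays detected with p21 in PC-3, 41 were detected with both HepG2 target probes. Of these 41, 18 were higher with p21 and 10 higher with STAT3 in HepG2, so the p21 side was also the larger in that whole set. In the authors' deposited table, where each HepG2 target probe is set against the same control purification, miR-92a had a fold of 447 for p21 and 19.4 for STAT3. In the authors' deposited table miR-296-5p had 131 for p21 and 5.91 for STAT3, miR-125b had 0.848 for p21 and 7.18 for STAT3, and miR-1979 had 0.585 for p21 and 5.68 for STAT3. These folds share their control, and the first pair exceeded it with both probes while the last pair exceeded it with STAT3.

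The sequences of the classes overlapped widely. Mature miRNAs higher with p21 had a median GC content of 54.5% (39 matched), those higher with STAT3 50% (24 matched) and those within 2-fold 47.8% (67 matched), and the ranges of the first 2 were 36.4% to 81.0% and 31.8% to 73.9%. Across the 130 matched assays measured with both probes, GC content and centred value had a Spearman rho of 0.17 and a Pearson r of 0.16. Across the 155, mean Cq and centred value had a rho of -0.25 and an r of -0.24. Both are descriptions over assays that share plates and purifications, and Cq enters both measures of the second.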

How the data were processed

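The authors deposited 1 table of non-normalized Cq values with 1 well per assay, panel and purification, and wells without a call marked as undetermined. Instrument, threshold and software are not given in the sources here. The authors also deposited fold ratios of each target probe over its control, which are 2 to the power of minus ΔΔCt per the file headers and linear despite their column titles. Groups, probes and panels came from the labels, and 0 columns of samples went unmapped.

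Detection meant a Cq of at most 35. Cq STAT3 minus Cq p21 was centred per panel on the median over miRNA assays detected with both probes, and 2-fold was the size that counts. Nothing was tested, because each probe has 1 purification. Precision rests on 7 assays with wells on both panels, and depth, as read counts, does not apply: the amount of template sets it, and wells near Cq 35 hold few molecules. None of the 18 blank wells gave a Cq. Named were the 10 highest and 10 lowest values, the 8 lowest Cq detected with each probe only, lists with at least 3 detected members, and the reference and spike-in assays. The members, lists and this rule were chosen with earlier results of these data known. Panel names were matched by hand to RefSeq arms. Lists of reported p21 and STAT3 regulators were not used here. The calculation was checked on simulated data. Alternatives changed the centre, the limit, the treatment of undetected wells and the source of values. Python 3.11.15, pandas 2.3.3, numpy 2.4.6, scipy 1.17.1 and matplotlib 3.10.9 were used.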

Additional observations from a re-analysis of the deposited data

How the results depend on the processing

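The count higher with p21 (45) was 26 when centred on the reference assays, 85 on the UniSp3 calibrator, 12, 29 and 85 with a Cq limit of 32, 34 and 37, 80 from the authors' deposited folds and 26 at 2 log2 units. The count higher with STAT3 (31) was 17 without centring, 76 on the reference assays, 14 on UniSp3, 9, 19 and 77 with limits of 32, 34 and 37, 82 with undetected assays set to Cq 35, 65 from the authors' deposited folds and 7 at 2 log2 units. Assays detected with p21 only (56) numbered 21, 54 and 22 with limits of 32, 34 and 37 and 28 where the other well had to be undetermined or 2 cycles later. Those detected with STAT3 only (101) numbered 6, 54 and 163 with limits of 32, 34 and 37, so the 2 counts were equal at 34 and the p21-only count was the larger at 32. The let-7 median (2.55) was 1.53 on the reference assays and 4.16 on UniSp3. Among values past 2-fold, signs turned only under UniSp3, for the neural median (0.36), miR-25 (0.15), miR-29b (0.37), miR-99b (0.38), let-7d* (0.024), miR-365 (0.17), miR-423-3p (0.12), miR-124 (0.34), miR-149 (0.37) and miR-133b (0.25). On panel 1 the UniSp3 wells ran from 21.6 to 24.9 cycles with p21 and from 21.7 to 22.4 with STAT3, which sets that centre. Smaller values often turned: 31 of 32 named assays under 2-fold and 11 of 11 list medians under 2-fold changed sign in at least 1 alternative. Signs given above for values under 2-fold therefore hold for the main setting only. Of the 16 one-probe assays given with bounds or Cq values, the lowest bound over the other centres was 1.40-fold, and at a limit of 34 it was 1.58-fold. Of 49 named assays past 2-fold, 40 kept their direction in the alternatives run and 9 did not. The 10 highest never fell below 1.75 and the 10 lowest never rose above -0.20. No paired analysis was possible because each probe has 1 purification. Purification error is not measured, so no difference here is shown to recur, and wells near Cq 35 limit the one-probe assays most.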
